A study of Saccharomyces cerevisiae with 18 samples.

Results

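The nuclear basket mRNAs are the messengers of 6 budding yeast genes that encode proteins of the nuclear basket: MLP1 (YKR095W), MLP2 (YIL149C), NUP1 (YOR098C), NUP2 (YLR335W), NUP60 (YAR002W) and PML39 (YML107C). They were chosen by gene identity from 7127 counted features, with earlier results of these data known. The rule itself uses no measured value. All 6 were present and all 6 passed the filter on low counts, among 6429 features tested. The question here is how the mRNAs of the basket proteins themselves behaved when pores with and without a basket were purified.

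The nuclear pore complex (NPC) is the channel through which mRNA leaves the nucleus. The basket is a set of filaments on its nuclear side, where messenger ribonucleoproteins dock and are checked before export. In yeast, pores next to the nucleolus lack the basket. Mlp1 and Mlp2 are long coiled-coil proteins that form the filaments. Nup60 anchors them to the pore, Nup1 and Nup2 are phenylalanine-glycine (FG) repeat nucleoporins that bind transport factors, and Pml39 binds the Mlp proteins and takes part in keeping unspliced pre-mRNA in the nucleus.

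Polyadenylated RNA was sequenced in 18 libraries, 3 for each of 6 groups, from W303 yeast grown asynchronously to log phase in YPD and ground frozen. IgG was the matrix for basket-containing pores and for their background, the PrA control. A GFP nanobody was the matrix for all NPCs, for basket-less pores and for their background, the GFP control. The input is total extract. All 6 groups share the W303 background, medium and growth phase. The genotype of each strain, the protein tagged to catch each kind of pore and the mating type are not stated by the labels, so it is not known whether any of the 6 genes carried a tag. Basket-containing and basket-less pores also differ in matrix, so a direct difference between them is given beside the difference left once each matrix's control is taken off.

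The libraries held between 10592840 and 16620246 counts each. Replicates were compared by chi-square per degree of freedom, which was 1.58 to 20.4 within groups. The values of 18.7 and 20.4 belong to PrA control replicate 3 against the other replicates of its group. Input replicate 3 stood at 9.54 and 4.55 from input replicates 1 and 2, which were at 2.90 from each other. Basket-containing pores replicate 3 stood at 4.62 and 5.30 from its partners, which were at 1.80 from each other. GFP control replicate 2 was at 4.945 and 4.61 from its partners, which were at 2.84 from each other. Levels below are counts scaled to library size (CPM) after TMM scaling, as mean ± SD of 3 libraries. Differences are log2 fold changes ± standard error from 1 edgeR quasi-likelihood fit over the 18 libraries, with Benjamini-Hochberg adjustment over the 6429 features, and a feature is called at adjusted p below 0.05. Levels are shares within a bulk library. A change in the number of cells or pores that hold an mRNA and a change in its amount per cell therefore cannot be told apart. The labels do not say whether replicates were separate cultures, so each p-value speaks only of library-to-library spread here, which may be technical.

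All 6 genes have 1 exon and lie on 6 different chromosomes of the R64 build. MLP1 and MLP2 encode related proteins, so it matters whether reads could be counted for the wrong one. Every 50-base window of each of the 6 coding sequences occurs once in the genome. The longest stretch shared by the coding strands of MLP1 and MLP2 is 15 bases. It is given here in capitals with 15 bases on each side, from the R64 sequence in RefSeq, at chrXI:621414-621458 on the plus strand for MLP1 and chrIX:66474-66518 on the minus strand for MLP2.
MLP1: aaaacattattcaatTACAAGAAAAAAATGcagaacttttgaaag
MLP2: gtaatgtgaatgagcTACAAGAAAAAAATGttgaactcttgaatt
Reads of at least 50 bases from within either coding sequence are thus specific to their gene.

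MLP1 (chrXI:619805-625432, plus strand, 5628 coding bases) encodes the larger filament protein. Its mRNA was at 5258, 5549 and 5551 CPM in basket-containing pores, 806.1, 818.0 and 830.9 in all NPCs, and 511.5, 518.1 and 532.0 in basket-less pores. The controls were lower, with 286.2, 296.7 and 277.0 CPM in the PrA control and 252.1, 259.3 and 259.9 in the GFP control. Input held 123.1, 120.1 and 123.1 CPM. No 2 neighbouring groups in this order overlapped. By mean level, MLP1 ranked 1680 of 6429 features in input and 10 in basket-containing pores. The counts behind these levels were 68765, 54393 and 60634 in basket-containing pores and 1633, 1320 and 1641 in input.

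After TMM scaling, the MLP1 level in basket-containing pores was 44.6-fold that in input (log2 fold change 5.48 ± 0.04, edgeR quasi-likelihood with Benjamini-Hochberg adjustment, adjusted p = 9.94e-32). This was the third-highest log2 fold change of all features tested. Against basket-less pores MLP1 had the highest log2 fold change of the 6429 features, 3.39 ± 0.04 (edgeR quasi-likelihood, adjusted p = 6.52e-28). With each control taken off, this difference was 3.23 ± 0.05 (edgeR quasi-likelihood, adjusted p = 2.86e-24). Whether MLP1 carried the tag used to catch these pores is not known, and the part of the tagged protein was not tested. By TMM-scaled level, basket-less pores held 2.03-fold the MLP1 of their GFP control, and all NPCs 3.18-fold. These log2 fold changes of 1.02 and 1.67 shrank to 0.14 and 0.45 with the trend of counts on coding length taken off. MLP1 was also lower in basket-less pores than in all NPCs (log2 difference -0.65 ± 0.04, edgeR quasi-likelihood, adjusted p = 8.51e-12), where genes of like length had a median of -0.32 and the value with the length trend taken off was -0.30.

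MLP1 was already above input in the background purifications. The PrA control stood 2.35-fold above input (log2 fold change 1.23 ± 0.04, edgeR quasi-likelihood, adjusted p = 3.21e-19) and the GFP control 2.10-fold (1.07 ± 0.04, adjusted p = 4.93e-18). Among the 164 tested genes whose coding length lies within 25% of its own, MLP1 ranked 4 and 9 in these comparisons, and the medians of those genes were 0.01 and 0.02. MLP2, the nearest relative of MLP1, stood at 0.12 ± 0.05 and 0.21 ± 0.05. What sets the MLP1 level in the controls was not tested.

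**Figure D1:**
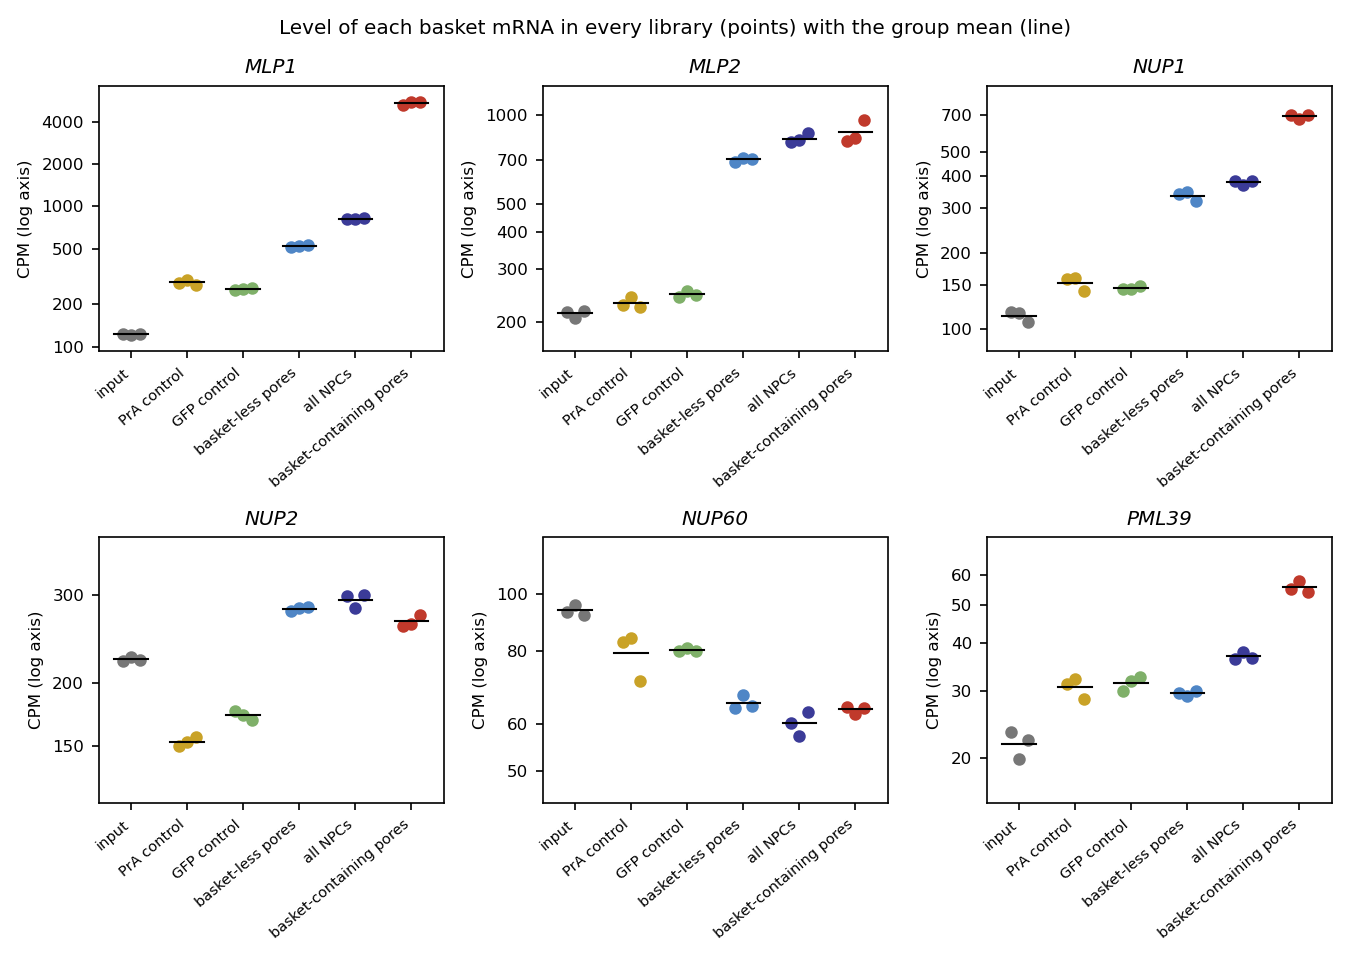
Level of each nuclear basket mRNA in every library (CPM after TMM scaling, log axis), 1 panel per gene. Points are the 3 libraries of a group and bars are group means. MLP1 reached 5453 CPM on average in basket-containing pores against 122.1 in input, while NUP60 was highest in input, at 93.6.

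MLP2 (chrIX:63028-68067, minus strand, 5040 coding bases) encodes the second filament protein. It was at 814.9, 835.2 and 960.9 CPM in basket-containing pores, 806.3, 818.3 and 866.1 in all NPCs, and 691.5, 715.1 and 710.9 in basket-less pores. The GFP control held 241.6, 254.6 and 245.9 CPM, the PrA control 228.3, 241.5 and 224.9, and input 215.2, 206.3 and 217.7. The libraries of basket-containing pores and all NPCs overlapped, with the highest value in basket-containing pores replicate 3, and each other neighbouring pair of groups was separate. Unlike MLP1, MLP2 was thus nearly as high in basket-less pores as in the other pore purifications.

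Against their own controls, MLP2 was higher by a log2 fold change of 1.91 ± 0.05 (basket-containing pores), 1.51 ± 0.05 (basket-less pores) and 1.75 ± 0.05 (all NPCs), the last 2 sharing the GFP control. The direct difference of basket-containing over basket-less pores was 0.30 ± 0.05 (edgeR quasi-likelihood with Benjamini-Hochberg adjustment, adjusted p = 3.31e-06) and became -0.36 once the trend with coding length is taken off. Against all NPCs the difference of 0.07 ± 0.05 was not called (edgeR quasi-likelihood, adjusted p = 0.198).

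The ratio of MLP1 to MLP2 counts within a library does not depend on how libraries are scaled. Input had a ratio of 0.573 ± 0.008, basket-less pores 0.738 ± 0.012, all NPCs 0.986 ± 0.023, the GFP control 1.04 ± 0.02 and the PrA control 1.24 ± 0.01. In basket-containing pores it was 6.29 ± 0.46, from 5.78 to 6.64 (SD, n = 3 each). The 3 libraries of basket-containing pores lay above all 15 others. On the log2 scale, basket-containing pores exceeded basket-less pores by 3.09, input by 3.45, the PrA control by 2.34, the GFP control by 2.60 and all NPCs by 2.67. Each of these 5 comparisons gave p = 0.1 in a two-sided exact permutation test, the smallest p that 3 against 3 libraries allow, and 0.1 after Benjamini-Hochberg adjustment.

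NUP1 (chrXV:507948-511178, minus strand, 3231 coding bases) encodes an FG nucleoporin of the basket that binds importin and helps to hold the export machinery at the pore. Its mRNA was at 698.9, 673.1 and 696.3 CPM in basket-containing pores, 385.1, 369.4 and 382.4 in all NPCs, and 339.6, 345.9 and 320.3 in basket-less pores. The PrA control held 157.5, 158.9 and 141.5 CPM, the GFP control 143.4, 144.6 and 147.9, and input 117.3, 115.4 and 106.3. The controls overlapped each other, and every other neighbouring pair of groups was separate. The means of the 6 groups were in the same order as for MLP1 except that the controls overlapped. Basket-containing pores exceeded basket-less pores by 1.04 ± 0.04 on the log2 scale (edgeR quasi-likelihood with Benjamini-Hochberg adjustment, adjusted p = 3.77e-17), and by 0.97 ± 0.06 with each control taken off (adjusted p = 7.02e-13). Over their own controls, the log2 fold changes were 2.17 ± 0.05 for basket-containing pores and 1.21 ± 0.05 for basket-less pores.

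NUP2 (chrXII:797430-799592, plus strand, 2163 coding bases) encodes a mobile FG nucleoporin that takes part in recycling importin alpha. It was at 260.3, 262.7 and 273.8 CPM in basket-containing pores, 298.3, 281.9 and 299.8 in all NPCs, and 278.4, 282.3 and 283.5 in basket-less pores. Input held 221.7, 225.9 and 222.3 CPM, above the GFP control at 176.0, 172.8 and 168.7 and the PrA control at 150.3, 152.5 and 156.3. All NPCs and basket-less pores overlapped, and every other neighbouring pair of groups was separate. NUP2 thus differed little between pore purifications, and the controls lay below input. The difference between basket-containing and basket-less pores was -0.08 ± 0.04 (edgeR quasi-likelihood with Benjamini-Hochberg adjustment, adjusted p = 0.0414). It lost its call when any 1 of the 6 libraries compared was left out, and its sign changed to 0.05 under relative-log-expression (RLE) factors. Over their own controls, basket-containing and basket-less pores stood at 0.80 ± 0.04 and 0.71 ± 0.04, and the first was -0.10 with the coding-length trend taken off.

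NUP60 (chrI:152257-153876, plus strand, 1620 coding bases) encodes the anchor of the basket. Input held 93.2, 95.8 and 91.9 CPM, the GFP control 79.97, 80.88 and 79.85, and the PrA control 82.83, 83.95 and 71.1. The pore purifications were lower, with 64.1, 67.2 and 64.4 CPM in basket-less pores, 64.3, 62.4 and 64.1 in basket-containing pores and 60.4, 57.4 and 63.1 in all NPCs. Basket-containing pores overlapped both other pore groups, while basket-less pores lay above all NPCs. The controls overlapped each other, and every pore library lay below every control library. NUP60 was thus the member whose share was lower in pores than in background. The log2 fold change was -0.32 ± 0.06 for basket-containing pores over the PrA control (edgeR quasi-likelihood with Benjamini-Hochberg adjustment, adjusted p = 1.30e-05), and -0.39 without PrA control replicate 3. It was -0.30 ± 0.06 for basket-less pores and -0.41 ± 0.06 for all NPCs over the GFP control. Between basket-containing and basket-less pores it was -0.04 ± 0.06 and was not called (adjusted p = 0.581), with 0.09 under RLE factors.

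PML39 (chrXIII:55265-56269, minus strand, 1005 coding bases) encodes the Mlp-binding protein and has the shortest coding sequence of the 6 and the lowest CPM, before division by length. Its mRNA was at 55.1, 57.7 and 54.2 CPM in basket-containing pores, 36.3, 37.9 and 36.4 in all NPCs, and 29.52, 29.02 and 29.95 in basket-less pores. The GFP control held 29.9, 31.8 and 32.6 CPM, the PrA control 31.1, 32.1 and 28.6, and input 23.4, 19.9 and 22.3. Basket-containing pores stood apart from all other groups, while basket-less pores overlapped both controls. Basket-containing pores exceeded the PrA control by 0.86 ± 0.07 (edgeR quasi-likelihood with Benjamini-Hochberg adjustment, adjusted p = 7.07e-12) and basket-less pores by 0.92 ± 0.07 (adjusted p = 5.30e-12). With each control taken off, the difference between the pore types was 0.95 ± 0.10 (adjusted p = 3.22e-09).

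For basket-less pores against the GFP control, PML39 was not called (-0.09 ± 0.07, edgeR quasi-likelihood, adjusted p = 0.238). It was called lower under RLE factors (-0.21), upper-quartile factors (-0.36), no filter, a fit of the groups compared only and DESeq2. For all NPCs against the GFP control it was 0.23 ± 0.07 (adjusted p = 0.00373), and -0.06 under upper-quartile factors. This call was also lost under RLE factors (0.11), no filter (0.13), a fit of the groups compared only (0.10) and DESeq2 (0.11). In the controls, PML39 stood 0.49 ± 0.07 (PrA) and 0.52 ± 0.07 (GFP) above input.

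Levels of different genes can be compared per coding length. In input, the order was NUP2 at 103.2 CPM per kilobase, NUP60 at 57.8, MLP2 at 42.3, NUP1 at 35.0, PML39 at 21.8 and MLP1 at 21.7, and only PML39 and MLP1 overlapped. In basket-containing pores, MLP1 led with 968.9 CPM per kilobase, followed by NUP1 at 213.4, MLP2 at 172.7, NUP2 at 122.8, PML39 at 55.4 and NUP60 at 39.3, with no overlap. MLP1 therefore moved from the lowest place of the 6 to the highest.

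Together the 6 mRNAs took 0.0776 ± 0.0019% of input counts. The PrA control stood at 0.101%, the GFP control at 0.0961%, basket-less pores at 0.199%, all NPCs at 0.252% and basket-containing pores at 0.635 ± 0.021%. These shares use unscaled counts. Within the basket counts, the MLP1 share was 15.5% for input, 26.9% for basket-less pores, 33.9% for all NPCs and 73.7 ± 0.8% for basket-containing pores. These shares sum to the whole, so a larger MLP1 share leaves less for the rest, whatever their own level did. All 5 others had a smaller share in basket-containing pores than in input, for example NUP2 with 3.59% against 28.4%, although its own level was 265.6 CPM against 223.3. MLP2 was the largest component in basket-less pores, with 36.4 ± 0.3%.

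**Figure D2:**
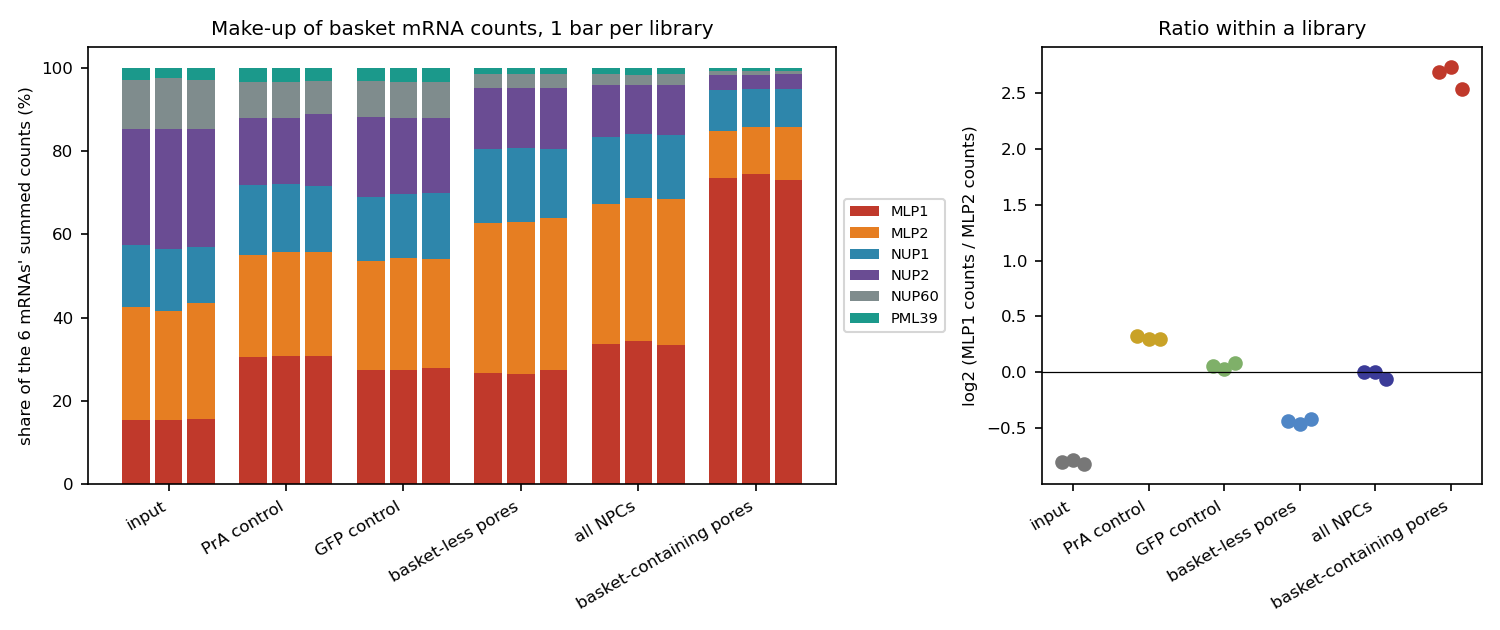
Make-up of the nuclear basket counts in each group and the MLP1 to MLP2 count ratio per library. MLP1 took 73.7% of the basket counts in basket-containing pores and 15.5% in input, and the ratio was 6.29 against 0.573.

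Counted over the comparisons, basket-containing pores had 5 of the 6 mRNAs called higher and 1 lower against the PrA control, where 43.8% and 46.5% of all features tested were. Basket-less pores had 4 higher and 1 lower against the GFP control (47.1% and 35.5% of features), and all NPCs 5 and 1 (46.9% and 37.6%), with the GFP control shared. The 5 for all NPCs includes PML39, whose call was lost in the settings given above. The median of the 6 log2 fold changes was 1.38, 0.86 and 1.08 in these comparisons, beside -0.07, 0.11 and 0.11 over all features. Fold change went with coding length, so medians of genes of like length are the nearer yardstick. Over the PrA control these were 1.32 for MLP1, 1.385 for MLP2, 1.28 for NUP1, 0.79 for NUP2, 0.32 for NUP60 and -0.31 for PML39. NUP2, at 0.80 there, was thus ordinary for its length. A large share of all features was called each way, so the counts are read beside the sizes. Without PrA control replicate 3, the 6 values over the PrA control ran from -0.39 (NUP60) to 4.22 (MLP1), and without basket-containing pores replicate 3 from -0.31 to 4.25, with the same 6 calls.

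Against input, which these comparisons share, basket-containing pores had 5 mRNAs higher and 1 lower (43.9% and 45.5% of features), basket-less pores 5 and 1 (44.0% and 36.1%) and all NPCs 5 and 1 (44.6% and 37.1%). NUP60 was the member lower in each. With the coding-length trend taken off, NUP2 turned to -0.55, -0.07 and -0.15 in these comparisons, the first and last called lower, and under upper-quartile factors it was -0.08 in the first. The PrA control had 4 higher and 2 lower than input (37.5% and 41.2%), as did the GFP control (37.2% and 42.4%), and here NUP2 was lower beside NUP60. The MLP2 call in the PrA control was lost in 3 of 6 fits that left out 1 library. Between the controls, 1 was higher in the PrA control (MLP1, 0.16 ± 0.04) and 1 lower (NUP2, -0.17 ± 0.04), where 16.1% and 16.7% of features were. Without PrA control replicate 3, NUP1 was also called higher there, at 0.12, which made 2.

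Between pore types, basket-containing pores had 4 of the 6 higher and 1 lower than basket-less pores, where 40.3% and 42.2% of features were. With each control taken off, 4 were higher and 0 lower (36.6% and 39.5% of features). The lower one was NUP2, at -0.08, and with controls taken off it stood at 0.09 ± 0.05 (edgeR quasi-likelihood, adjusted p = 0.132). Against all NPCs, basket-containing pores had 3 higher and 1 lower (38.7% and 41.7%), and 4 and 0 with controls taken off (34.1% and 38.1%). That count of 4 ran from 3 to 6 when 1 library was left out, and the MLP2 call in it (0.16 ± 0.07) was lost in 6 of 12 such fits. Without basket-containing pores replicate 3, the values over basket-less pores were 3.51 for MLP1, 0.36 for MLP2, 1.16 for NUP1, 0.02 for NUP2, 0.09 for NUP60 and 1.06 for PML39, so NUP2 and NUP60 changed sign. Over all NPCs, 5 were then higher and 0 lower, as also under RLE factors, where 2868 of 6429 features were higher and 2324 lower. Basket-less pores had 0 higher and 4 lower than all NPCs (20.3% and 22.8%): MLP1, MLP2, NUP1 and PML39. Spearman's rho between log2 fold change and coding length was -0.563 in this comparison. With the coding-length trend taken off, 2 were lower, MLP1 at -0.30 and PML39 at -0.40, and 1 higher, NUP60 at 0.16, while MLP2 (0.09) and NUP1 (0.07) changed sign and were not called. In that fit 685 of 5773 features were lower and 894 higher.

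**Figure D3:**
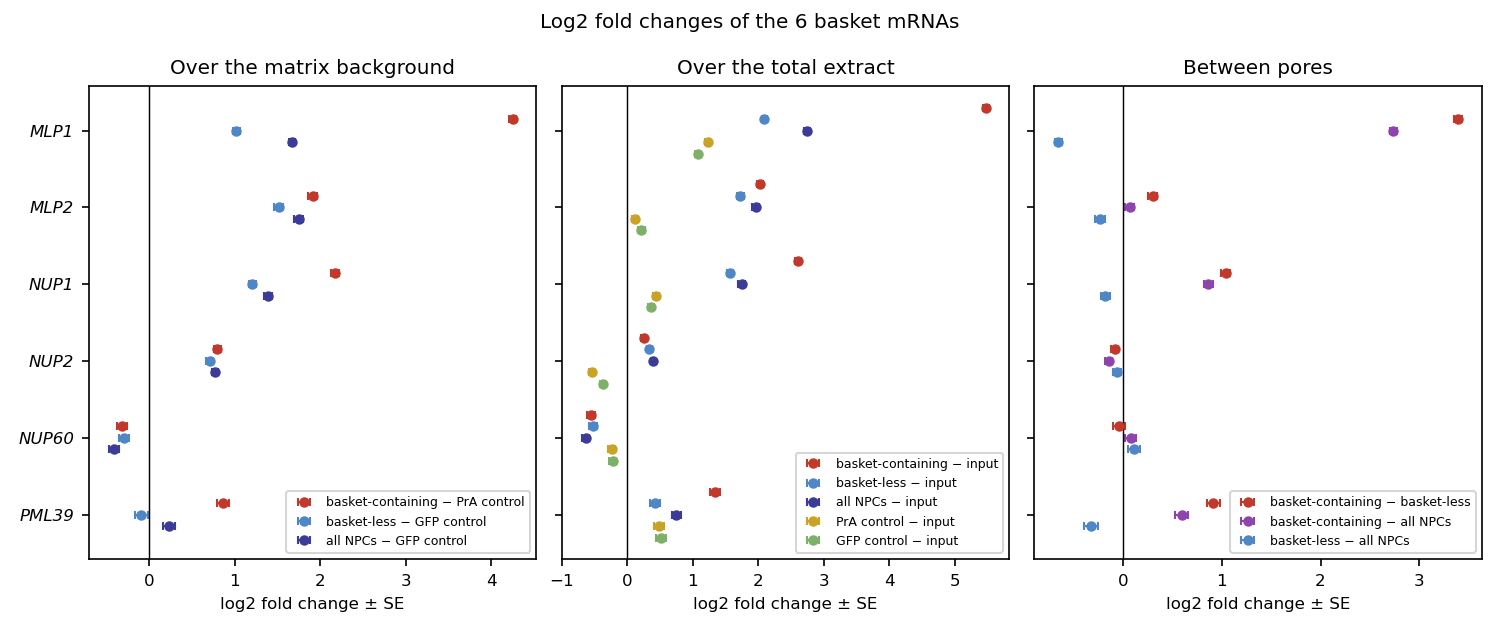
Log2 fold change of each nuclear basket mRNA with its standard error, for pores over their controls and between pore types. MLP1 lies far to the high side where basket-containing pores are compared (4.25 over the PrA control, 3.39 over basket-less pores), and NUP60 lies below 0 over both controls.

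Coding length went with these differences across all genes, so each member is placed beside genes of like length. Across 5773 genes with a coding length, which share the same libraries, Spearman's rho between log2 fold change and coding length was 0.568 for basket-containing pores over the PrA control and 0.452 over basket-less pores. The controls over input gave -0.10 (PrA) and -0.15 (GFP). Genes under 1000 bases had a median log2 fold change of -0.96 over the PrA control and genes of at least 5000 bases had 1.32.

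Against basket-less pores, MLP1 ranked 1 of 164 genes within 25% of its length, whose median log2 fold change was 0.61. MLP2 ranked 158 of 209, below its like-length median of 0.68, and NUP1 170 of 652, above its median of 0.68. NUP2 ranked 980 of 1306 and NUP60 941 of 1623. PML39 ranked 96 of 1409, where the median was -0.25. In this comparison MLP1 and PML39, at opposite ends of the length range, were thus both high for their length, and MLP2 was not. Over their own controls, MLP2 ranked higher among the 209 genes. Its rank was 71 for basket-containing pores, 31 for basket-less pores and 42 for all NPCs. For basket-containing pores over the PrA control, MLP1 ranked 1 of 164, NUP1 133 of 652 and NUP2 650 of 1306. NUP60 ranked 1170 of 1623 and PML39 235 of 1409 there.

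**Figure D4:**
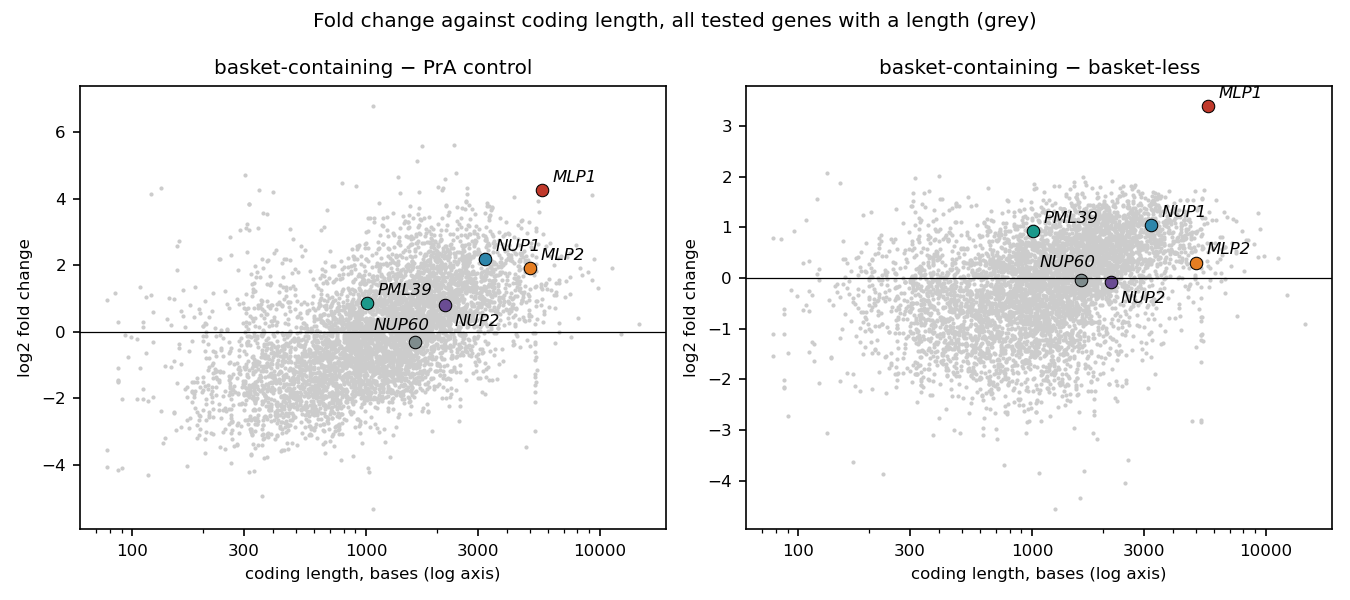
Log2 fold change against coding length (bases, log axis) for 5773 genes, with the 6 basket mRNAs marked, for basket-containing pores over the PrA control (left) and over basket-less pores (right). On the left MLP1 stands at 4.25. For basket-containing over basket-less pores, MLP1 at 5628 bases and 3.39 lies above all genes of like length, and PML39 at 1005 bases and 0.92 lies above the like-length median of -0.25.

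With each library's trend of log count on coding length taken off, MLP1 still stood at a log2 fold change of 2.72 over basket-less pores, NUP1 at 0.43 and PML39 at 1.24. MLP2 changed sign to -0.36, and NUP2 stood at -0.48. Over the PrA control the values of basket-containing pores were 2.75 for MLP1, 0.45 for MLP2, 0.89 for NUP1, -0.10 for NUP2, -0.74 for NUP60 and 1.13 for PML39. MLP1 over the GFP control in basket-less pores shrank from 1.02 to 0.14. The excess of MLP1 in the controls over input was 1.19 (PrA) and 1.08 (GFP), nearly as without the correction.

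**Figure D5:**
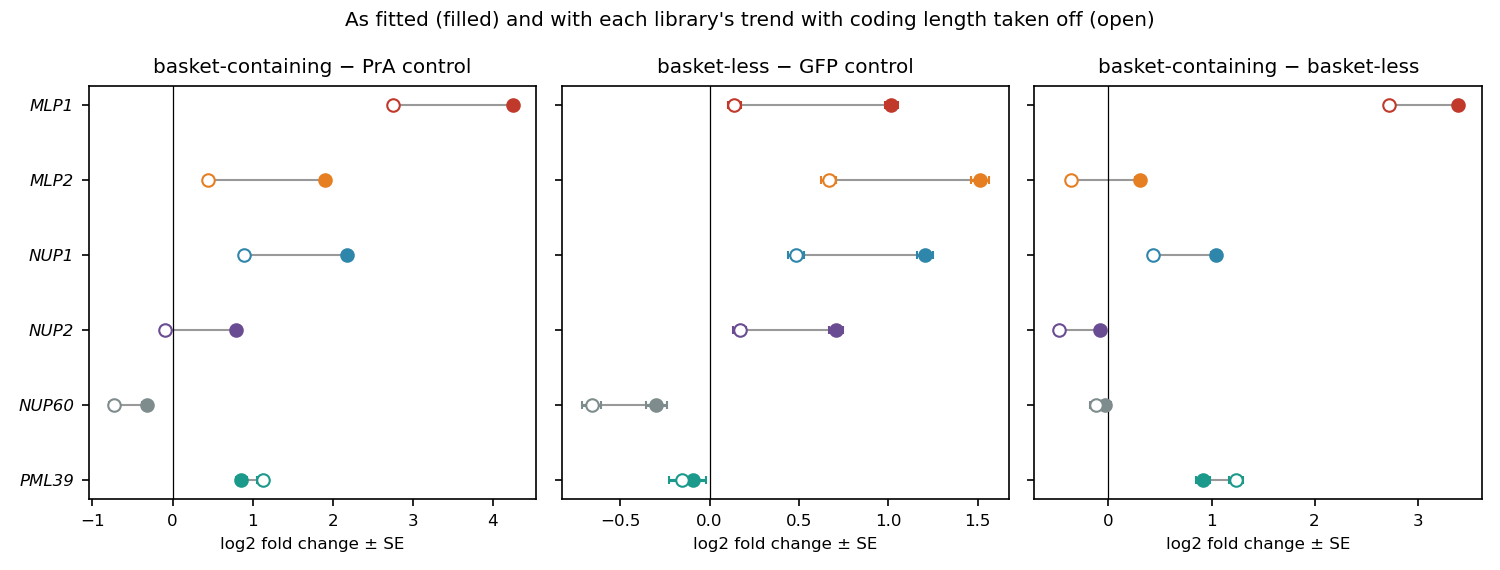
Log2 fold change of each basket mRNA as fitted and with the coding-length trend taken off. For basket-containing over basket-less pores, MLP1 goes from 3.39 to 2.72, PML39 from 0.92 to 1.24 and MLP2 from 0.30 to -0.36.

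Other pore genes give the setting. Of 29 nucleoporin genes outside the basket, 21 were higher and 7 lower in basket-containing pores over the PrA control (median 0.74). Of all features tested, 43.8% and 46.5% were. For basket-less pores against the GFP nanobody background, 22 were higher and 3 lower (median 0.42), beside 47.1% and 35.5% of features. Between these pore types, 16 were higher and 7 lower, beside 40.3% and 42.2% of features. The median was 0.16, beside -0.04 over all features. Between the pore types, the Y complex, the outer scaffold ring of the pore, had 4 of 7 higher and 3 lower, where 40.3% and 42.2% of all features were. NUP133 (1.02 ± 0.06) and NUP145 (0.81 ± 0.05), with 3474 and 3954 coding bases, were higher. SEH1 (-1.27 ± 0.06) and SEC13 (-0.59 ± 0.04), with 1050 and 894, were lower.

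Of the 11 inner ring and membrane genes, 5 were higher and 1 lower in the same comparison, the first near the share over all features. ASM4 (1.03 ± 0.06) and NUP170 (0.76 ± 0.05), both inner-ring nucleoporins, were higher, and NDC1 (-0.34 ± 0.07), a membrane nucleoporin, was lower. Of the 11 central and cytoplasmic-side genes, 7 were higher and 3 lower, beside 40.3% and 42.2% of all features. NUP116 (1.47 ± 0.04), an FG nucleoporin, and NUP159 (0.81 ± 0.04), which binds the export helicase Dbp5, were higher, while the export factor genes GLE2 (-0.94 ± 0.06) and GLE1 (-0.31 ± 0.05) were lower.

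Among 15 genes for proteins that dock at or bind the basket, 6 were higher and 6 lower between the pore types (median 0.04), close to the 40.3% and 42.2% over all features. ESC1, which encodes a protein of the inner nuclear periphery, was at 2205 CPM in basket-containing and 673.7 in basket-less pores (1.71 ± 0.04). KAP95, importin beta, was also higher (1.21 ± 0.04). CDC31 (-1.31 ± 0.10), a subunit of the TREX-2 export complex, and SRM1 (-0.81 ± 0.07), the Ran exchange factor also called PRP20, were lower.

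No annotated gene overlaps any of the 6, although frames absent from the reference were not placed. Between basket-containing and basket-less pores, PCC1, 431 bases from MLP1 on the same strand, had a log2 fold change of -0.40 ± 0.14, with 7.27 CPM in basket-containing pores. MCM10, 299 bases from MLP2 on the same strand, had 1.03 ± 0.08, and YOR097C, 442 bases from NUP1 on the same strand, had -0.69 ± 0.08. On the opposite strand, SGD1, 104 bases from NUP2, had -0.49 ± 0.07, ERP1, 188 bases from NUP60, had -2.04 ± 0.10, and YML108W, 154 bases from PML39, had -1.79 ± 0.21. In the PrA and GFP controls over input, PCC1 stood at 0.70 and 0.86, MCM10 at 0.50 and 0.35, YOR097C at 0.31 and 0.41 and SGD1 at -1.18 and -1.02, each with the sign of the member beside it. ERP1 stood at -0.02 and 0.23, and YML108W at -2.03 and -1.64.

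The features with the most similar pattern over the 18 libraries were found by the root-mean-square difference of log2 CPM, each centred on its own mean, among 5107 features with a mean of at least 20 CPM. For MLP1 they were GIS3 (0.485), YPL136W (0.525) and GLN3 (0.544). GIS3 went from 36.5 CPM in input to 648.1 in basket-containing pores. The other members had closer neighbours, with OPT2 (0.104), TRA1 and CSF1 for MLP2, FAB1 (0.089), CAD1 and SIN3 for NUP1, and DGA1 (0.075), YMR155W and NCA2 for NUP2. NUP60 was nearest to PER33 (0.076), KGD2 and DBP10, and PML39 to AVT3 (0.095), ASH1 and CYM1. MLP1 thus had the most distant nearest neighbour of the 6 by this difference, which is not scaled for the size of the changes. Pearson's r with the nearest feature was 0.979 for MLP1. It was 0.952 for NUP60, 0.975 for PML39, 0.978 for NUP2, 0.993 for MLP2 and 0.997 for NUP1.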

How the data were processed

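By the submitters' processing notes, the authors used STAR, featureCounts, DESeq2 and the R64 build. Tool versions, strandedness and the handling of reads with several matches are not given in these sources. The deposited files hold raw counts per feature, 1 column per library, and were used as they stand.

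Groups came from the labels. All 18 libraries entered 1 edgeR 4.0.16 fit (R 4.3.3, limma 3.58.1; filterByExpr, TMM, glmQLFit with robust=TRUE, glmQLFTest, two-sided), with 14 contrasts and Benjamini-Hochberg adjustment over the 6429 features tested. The standard error was taken as the size of the log2 fold change divided by the root of F. Coding lengths, positions and sequence are from RefSeq, of the same build, in which 6047 of the 7127 features were found. The length correction used a per-library lowess trend as an offset. The fit was tried on simulated data in which few features changed, equally in each direction. That trial cannot speak for the scaling where, as here, a large share of features differs. Precision is limited by 3 libraries a group.

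Named genes are the 6 members, up to 2 genes in each direction per list with the smallest adjusted p between basket-containing and basket-less pores, the 3 features most like each member, and annotated genes within 500 bases. Members and lists were chosen with earlier results of these data known. Alternatives were RLE, upper-quartile and total-count scaling, a minimum mean count of 50, no filter, nuclear reading frames only, the length correction, the replicate number as a block, only the groups compared, DESeq2 1.42.0, and leaving out each library.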

Additional observations from a re-analysis of the deposited data

Results flagged for a closer look

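In 8 cases the difference between a pore purification and its own control itself differed between pore types (edgeR quasi-likelihood test of the difference of differences, Benjamini-Hochberg adjustment over 6429 features, 3 libraries a group). Basket-containing pores over the PrA control exceeded basket-less pores over the GFP control by a log2 value of 3.23 for MLP1, 0.97 for NUP1, 0.95 for PML39 and 0.40 for MLP2. They exceeded all NPCs over the GFP control by 2.58 for MLP1, 0.79 for NUP1, 0.63 for PML39 and 0.16 for MLP2. These comparisons share the basket-containing libraries as well as the control libraries, so the 8 cases are the same 4 genes in both. Of all features, 36.6% were called higher and 39.5% lower in the first comparison, and 34.1% and 38.1% in the second. The second MLP2 value, with an adjusted p of 0.0401, lost its call in 6 of 12 fits that left out 1 library (0.14 to 0.21). The MLP2 values changed sign in both when the coding-length trend was taken off, to -0.22 and -0.13, and the second also with total counts, to -0.18. The matrix differs between the pore types, and the protein tagged to catch each is not stated. The part of matrix or tagged protein in these differences, beyond what each control takes off, was not tested.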

How the results depend on the processing

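Of 1416 alternative values for the 84 differences, 1313 kept their direction and side of the threshold, 41 changed sign, 30 lost and 32 gained a call. MLP1 kept both in 236 of 236, NUP1 in 234, PML39 in 224, MLP2 in 209, NUP60 in 207 and NUP2 in 203. BC, BL and ALL stand here for basket-containing pores, basket-less pores and all NPCs, PrA and GFP for the controls. The cause of the changes was not tested. With RLE factors, NUP2 in BC over BL was 0.047, NUP60 in BC over BL 0.094, and NUP60 with controls taken off 0.116. DESeq2 gave 0.047, 0.095 and 0.116, and no filter 0.04, 0.088 and 0.093. Under these 3 settings basket mRNAs lower were 2 in BL over GFP, 0 in BC over BL and 0 in BC over ALL, and 5 were higher in BC over ALL. Of all 6429 features, RLE factors made 2608 lower in BL over GFP, against 2282 with TMM scaling. Lower features numbered 2418 in BC over BL (2712 with TMM scaling) and 2324 in BC over ALL (2678). Higher features numbered 2868 in BC over ALL (2489). Upper-quartile factors gave PML39 -0.058 in ALL over GFP, NUP2 -0.082 in BC over input and -0.024 in BC against ALL with controls taken off, with 2 lower in BL over GFP and 2 in BC over input. Of all 6429 features, 3125 were then lower in BL over GFP (2282 with TMM scaling) and 3487 in BC over input (2927). Upper-quartile factors moved the median of all features in BC over PrA from -0.07 to -0.41. Total counts moved it to -0.40, and gave NUP60 0.056 and PML39 0.035 in PrA over GFP, MLP2 -0.21 and NUP60 -0.20 in BC over ALL, NUP2 -0.23 in BC against BL with controls taken off, and MLP2 -0.18, NUP2 -0.32 and NUP60 -0.26 in BC against ALL with controls taken off. Then 1 was lower in PrA over input, 2 in BC over BL, 3 in BC over ALL, and 2 and 3 with controls taken off. Total counts shifted all 6429 features likewise. Those lower numbered 3349 in BC over BL (2712 with TMM scaling) and 3518 in BC over ALL (2678). They numbered 3335 (2540) and 3491 (2452) with controls taken off, and 2173 (2650) in PrA over input.

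With the coding-length trend taken off, NUP2 was -0.10 in BC over PrA, -0.55, -0.067 and -0.15 in BC, BL and ALL over input, 0.084 in BL over ALL, and -0.27 and -0.18 in BC against BL and ALL with controls taken off. MLP2 was -0.36 in BC over BL, -0.27 in BC over ALL, 0.094 in BL over ALL, and -0.22 and -0.13 with controls taken off, and NUP1 was 0.066 in BL over ALL. Lower counts became 2 in BC over PrA, BC over input, ALL over input, PrA over GFP, BC over BL, BC over ALL, BL over ALL and BC against BL with controls taken off, and 1 in GFP over input and in BC against ALL with controls taken off, while 1 was higher in BL over ALL. Of 5773 features in this fit, those lower numbered 2595 in BC over PrA, 2480 in BC over input and 2374 in ALL over input. They numbered 1110 in PrA over GFP and 2385 in GFP over input. Between pore types they numbered 2162 in BC over BL, 2129 in BC over ALL and 685 in BL over ALL, where 894 were higher. With controls taken off, 1978 were lower against BL and 1933 against ALL. Fitting only the groups compared gave NUP60 0.001 in PrA over GFP, 2 lower in BL over GFP and 1 higher in BL over ALL. There, 2688 of 6356 features were lower in BL over GFP and 1791 of 6316 higher in BL over ALL. Leaving out 1 library gave NUP2 -0.091 to 0.024 and NUP60 -0.048 to 0.089 in BC over BL, NUP60 -0.094 to 0.093 with controls taken off, and NUP60 -0.054 to 0.057 and PML39 -0.069 to 0.01 in PrA over GFP. The count lower in BC over BL ran from 0 to 0 and in BC over ALL from 0 to 1. The count higher in BC over ALL ran from 3 to 5, with 5 without basket-containing pores replicate 3, and in PrA over GFP from 1 to 2, with 2 without PrA control replicate 3.

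Deviations of same-numbered libraries from their group means had r above 0.1 at every number in none of 15 pairs of groups (r from -0.16 to 0.28). The numbers were therefore not taken as pairs. The PrA control and input came closest, with r of 0.124, 0.098 and 0.28. With the replicate number as a block, all 84 differences kept direction and call. Levels are shares of a library with 3 libraries a group, so a general change in RNA amount is not seen.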

Other observations

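Markers of the mating types were summed as a check of the cells, whose mating type the labels do not give. Unlike the levels above, these sums are CPM of the library total without TMM scaling. The 6 a-cell markers summed to between 799.8 and 918.7 CPM in input libraries and between 368.2 and 413.5 in basket-containing pores. The 3 alpha-cell markers summed to between 9.92 and 10.1 CPM in input. A-cell markers were thus the higher in input, as a description with no test.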
